A study of Mus musculus with 4 samples.

Results

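Mitochondrial ribosomal protein genes, the nuclear genes whose symbols run from Mrpl1 to Mrps36, were examined in primary mouse microglia treated with lysophosphatidylserine (LysoPS). They were taken as every row of the gene table named Mrpl or Mrps plus a number, with an optional letter, and at least 40 counts summed over the libraries. All 78 gene models with such a name met the count minimum, of 51826 gene models in the table, and all 78 were among the 19057 genes tested. The choice used names and total counts, not the difference between treatments.

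The study sequenced mRNA in 4 libraries of primary microglia, the resident macrophages of the brain, all named WT in the labels. Both LysoPS libraries came from cells given LysoPS, a lysophospholipid that signals through GPR34, for 4 h, and both mock libraries came from untreated cells. All cells were prepared from brains of newborn C57BL/6 mice with the meninges removed, grown as mixed glia for about 2 weeks and shaken off. The labels do not say whether the 2 libraries of a group came from separate cultures or animals, so the p-values measure only the spread between these libraries, which may be technical.

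The mitochondrial ribosome translates the few mRNAs made from mitochondrial DNA, which encode core subunits of the respiratory chain and ATP synthase. Its rRNAs are mitochondrial transcripts, while its proteins are encoded in the nucleus, made in the cytosol and imported, so assembly needs both genomes. About a set of proteins shared with bacterial ribosomes it carries many added only in mitochondria. In macrophages and microglia, mitochondrial respiration is known to be remodelled during inflammatory activation.

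Library totals were 34689045 and 45193959 counts with LysoPS, against 30001098 and 41572340 counts in mock. Microglial markers such as Csf1r were detected, and so were markers of the other cells of a mixed glial culture. Summed over 16 gene models, the microglial and macrophage markers stood at 4601 and 4119 CPM (counts scaled to library size) with LysoPS, against 3159 and 2850 CPM in mock. The 10 astrocyte markers summed to 5106 and 5832 CPM with LysoPS, against 10918 and 9805 CPM in mock, and 8 of them were called lower and 0 higher. The 8 fibroblast markers summed to 11986 and 12347 CPM with LysoPS, against 14501 and 14646 CPM in mock. Of the marker models, 0 lacked counts in every library. In these bulk libraries, more cells of a type cannot be told apart from more RNA per cell, and the part of culture makeup in the results that follow was not tested.

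Promoters are shown for the 3 members most central to the comparison (Mrpl45, Mrpl12 and Mrps18b, the members with the lowest adjusted p and the largest fold change), for Mrpl52, whose window holds an ETS motif, and for Mrps6, whose log2 fold change had the opposite sign. Each is the RefSeq window from 250 bases before to 50 bases after the gene start in GRCm38.p6, printed 5′ to 3′ on the gene's strand. Capitals mark matches on either strand to the NRF1 motifs GCATGCGC (shorter) or GCGCA and GCGC with any base between them (longer), the ETS motif CCGGAAGT, the YY1 motif AAGATGGC, the GC box GGGGCGGGG or the NF-kappaB motif, GGGA and TTCC with any 2 bases between them. The windows lie at chr11:97315466-97315765 on the plus strand for Mrpl45, chr11:120484387-120484686 on the plus strand for Mrpl12, chr17:35916391-35916690 on the minus strand for Mrps18b, chr14:54426659-54426958 on the plus strand for Mrpl52 and chr16:92058086-92058385 on the plus strand for Mrps6.
Mrpl45: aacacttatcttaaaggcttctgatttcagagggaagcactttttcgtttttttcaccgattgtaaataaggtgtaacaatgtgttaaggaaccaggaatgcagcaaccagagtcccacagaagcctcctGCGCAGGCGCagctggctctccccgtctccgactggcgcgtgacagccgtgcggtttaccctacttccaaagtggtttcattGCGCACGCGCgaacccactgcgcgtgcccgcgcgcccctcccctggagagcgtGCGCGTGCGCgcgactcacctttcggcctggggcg
Mrpl12: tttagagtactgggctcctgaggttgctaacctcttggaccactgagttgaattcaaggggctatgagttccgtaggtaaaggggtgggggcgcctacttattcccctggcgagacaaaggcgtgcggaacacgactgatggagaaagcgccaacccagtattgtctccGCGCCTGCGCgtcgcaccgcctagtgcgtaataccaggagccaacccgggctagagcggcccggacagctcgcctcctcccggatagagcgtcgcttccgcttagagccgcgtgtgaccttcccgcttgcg
Mrps18b: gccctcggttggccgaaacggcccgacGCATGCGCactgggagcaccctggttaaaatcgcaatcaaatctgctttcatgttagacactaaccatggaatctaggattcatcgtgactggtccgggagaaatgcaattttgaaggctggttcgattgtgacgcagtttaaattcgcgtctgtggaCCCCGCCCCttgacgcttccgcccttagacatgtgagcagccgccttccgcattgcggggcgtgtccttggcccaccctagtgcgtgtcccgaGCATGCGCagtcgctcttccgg
Mrpl52: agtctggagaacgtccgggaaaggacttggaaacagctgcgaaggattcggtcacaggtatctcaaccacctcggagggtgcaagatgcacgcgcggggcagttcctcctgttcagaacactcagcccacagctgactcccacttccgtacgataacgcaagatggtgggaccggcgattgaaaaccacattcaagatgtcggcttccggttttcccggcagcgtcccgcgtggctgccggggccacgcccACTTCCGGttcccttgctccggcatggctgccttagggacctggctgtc
Mrps6: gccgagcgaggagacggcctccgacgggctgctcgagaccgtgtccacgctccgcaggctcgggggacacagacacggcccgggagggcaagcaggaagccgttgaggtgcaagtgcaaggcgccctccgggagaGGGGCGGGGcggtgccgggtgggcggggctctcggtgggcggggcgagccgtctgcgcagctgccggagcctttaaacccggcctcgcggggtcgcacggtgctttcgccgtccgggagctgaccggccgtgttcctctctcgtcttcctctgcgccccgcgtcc

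The Mrpl45 window held 3 matches to the longer NRF1 motif, the Mrpl12 window held 1, and the Mrps18b window held 2 matches to the shorter NRF1 motif and a GC box. Of the 78 members, 69 had a promoter in the RefSeq table, and 12 of these belong to the genes called below. The longer NRF1 motif, added after the sequences had been seen, was found in 13 of 69 members (18.8%), against 9.92% of the tested genes with a promoter and 4.60% of all 32851 promoter windows. The shorter NRF1 motif, which can overlap the longer one, was in 8 members (11.6%, against 5.27% and 2.71%). The ETS motif was in 12 members (17.4%, against 7.72% and 3.89%), and the YY1 motif also in 12 (17.4%, against 4.59% and 2.75%). The GC box was in 13 members (18.8%, against 22.8% and 11.4%), and the NF-kappaB motif in 1 (1.45%, against 1.75% and 1.47%). Among the 12 called members with a promoter, 3 held the longer NRF1 motif, 1 the shorter one, 3 the ETS motif, 2 the YY1 motif, 2 the GC box and 0 the NF-kappaB motif. NRF1, the ETS factor GABP and YY1 are known regulators of nuclear genes for mitochondrial proteins. A match describes letters in the window and not binding, and the absence of a match says nothing about a factor.

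The comparison of LysoPS with mock cultures asks how these genes responded to the lipid. With LysoPS, 13 of 78 mitochondrial ribosomal protein genes were higher and 0 were lower (edgeR quasi-likelihood test, Benjamini-Hochberg adjustment over all tested genes, threshold 0.05). Across all tested genes, 12.8% were called higher and 12.6% lower, so the members' 16.7% called higher was near the background. The folds of the 13 called members were small, between 1.25 and 1.84. At an unadjusted p under 0.05 there were 26 higher members (33.3%, against 19.4% of all tested genes) and 1 lower (1.28%, against 19.8%). DESeq2 called 15 higher and 1 lower, and limma-voom called 14 higher and 0 lower.

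The members' values differed from the background more in direction than in number of calls. The log2 fold change was above 0 in 65 of 78 members, against 48.9% of all tested genes, and it was above 0 in 54 members without LysoPS replicate 1 and in 57 after removal of length and GC trends. Both LysoPS libraries lay above both mock libraries in 49 members (62.8%, against 32.5% of all tested genes) and below both in 3, Mrps6, Mrps25 and Mrps35 (3.85%, against 34.5%). In the other 26 members the groups overlapped. The median log2 fold change was 0.18 over the members and -0.01 over all tested genes. Among the 5426 genes at a similar level, between 13.7 and 53.4 CPM, the median was 0.01 and 14.9% were called higher.

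**Figure D1:**
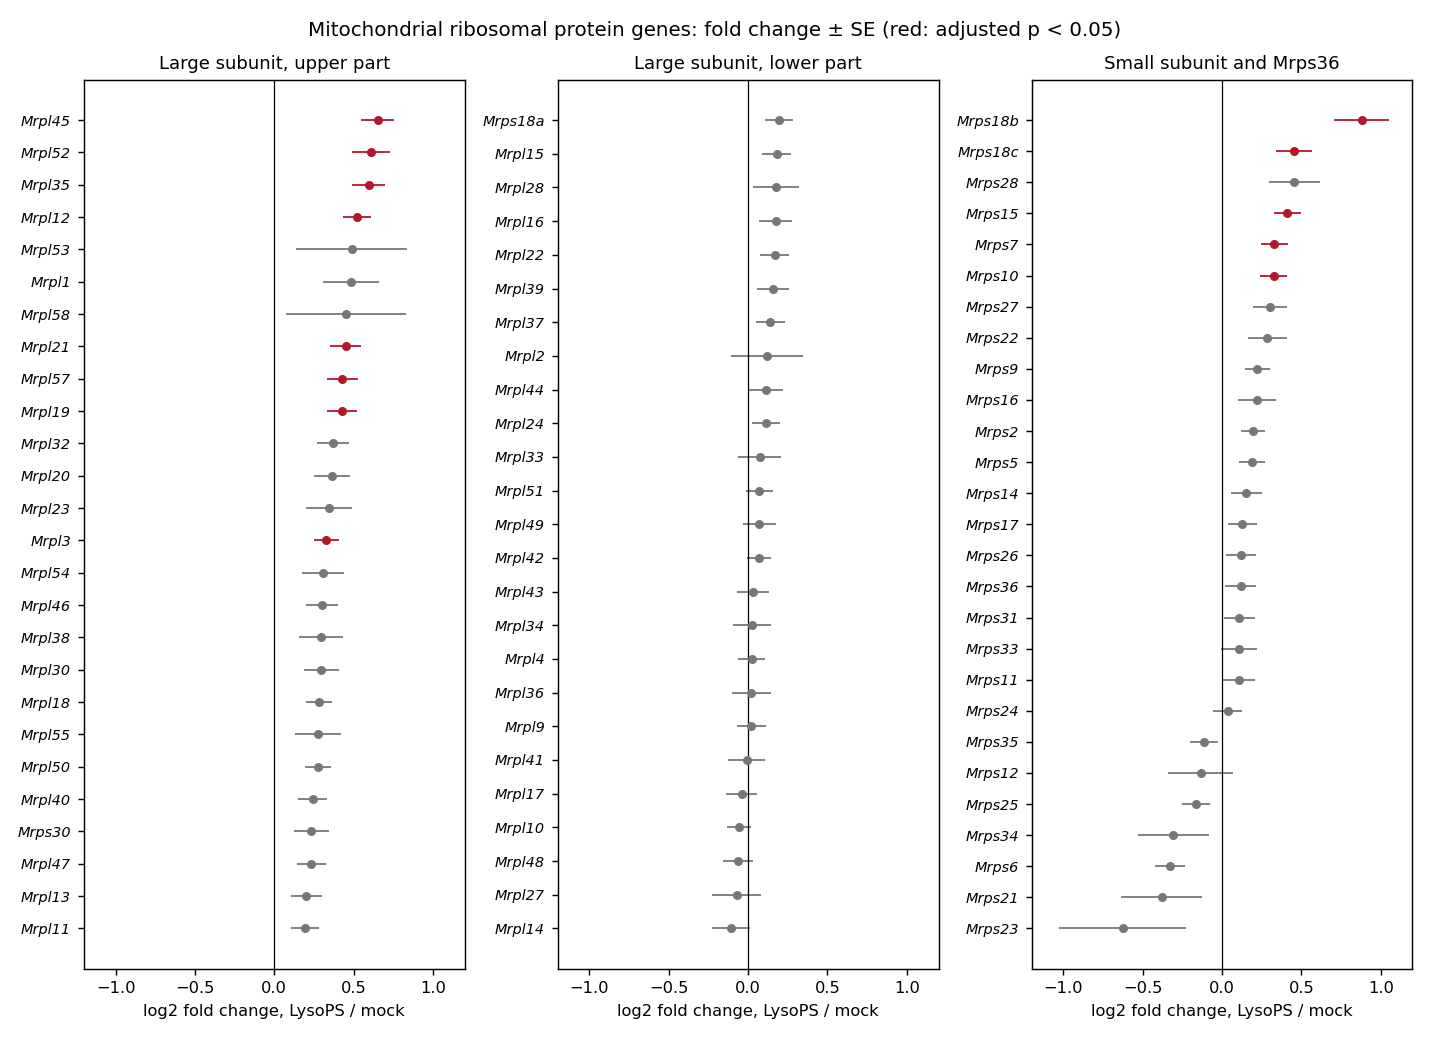
Log2 fold change (LysoPS over mock) of each of the 78 mitochondrial ribosomal protein genes with its standard error, ordered by fold change in the large subunit (2 panels) and in the small subunit with Mrps36, and with called genes in red. Most points lie to the right of 0, and the 13 called genes all lie there, with Mrps18b farthest at 0.88.

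The size of these differences depended on how the libraries were scaled. TMM scaling gave factors from 0.966 to 1.04, the lower ones for the LysoPS libraries, and the median log2 fold change of all genes was -0.01 with it and -0.11 without it. With library totals alone, a choice added after the data had been seen, the members' median log2 fold change was 0.09 and 55 of 78 were above 0, against 40.0% of all tested genes. Both LysoPS libraries then lay above both mock libraries in 32 members and below in 11, against 25.1% and 42.6% of all tested genes. Of the 78 members, 5 were called higher and 1 lower, Mrps6. Among all 19057 tested genes 1821 were called higher and 3226 lower, so both shares were smaller in the members. Under either scaling the members' median lay 0.20 above that of all genes on the log2 scale. A change of scaling shifts all genes by nearly the same amount, so this gap could hardly have differed and decides nothing. In the deposited TPM values, the median log2 ratio of the group means (pseudocount 1) was 0.01 over the members and -0.14 over all tested genes, and 40 of 78 members (51.3%) were higher with LysoPS, against 33.97% of all tested genes. Mrpl45, Mrpl12, Mrpl35, Mrps18b and Mrpl52 were called under both scalings.

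The large subunit, which joins amino acids and holds the exit tunnel, is represented by 51 members, counting Mrps18a and Mrps30, which sit in it despite their names. Of these, 8 were called higher and 0 lower, 45 had a log2 fold change above 0, and the median was 0.20. Their summed level was 1766 and 1591 CPM with LysoPS, against 1489 and 1421 CPM in mock, a ratio of 1.15. The groups did not overlap in this sum, although the 2 LysoPS libraries differed from each other by more than LysoPS replicate 2 differed from mock replicate 1.

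Mrpl45, which lies at the exit of the tunnel and tethers the ribosome to the inner membrane, had the lowest adjusted p of all members. Its gene model is ENSMUSG00000018882 at chr11:97315716-97329920 (GRCm38). It had 50.5 and 43.3 CPM with LysoPS, against 30.3 and 29.4 CPM in mock. Both LysoPS libraries were well above both mock libraries. The log2 fold change was 0.65 ± 0.102 (SE, n = 2 each; adjusted p = 0.0113 by edgeR). It was called without either LysoPS library but not without mock replicate 1 or mock replicate 2, where the adjusted p was 0.0506 and 0.0647.

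Mrpl12, the homologue of the bacterial stalk protein L7/L12 that recruits translation factors, followed. The model, ENSMUSG00000039640 at chr11:120484613-120489065, had 57.5 and 51.9 CPM with LysoPS, against 38.8 and 37.4 CPM in mock. The groups were well separated, with a log2 fold change of 0.52 ± 0.0865 (SE, n = 2 each; adjusted p = 0.0133 by edgeR). Mrpl35, a homologue of bacterial L35, had 26.2 and 25.7 CPM with LysoPS, against 16.0 and 18.3 CPM in mock, with a log2 fold change of 0.60 and an adjusted p of 0.0158. Its LysoPS libraries were nearly equal, and both were above mock. Mrpl52, a protein found only in mitochondrial ribosomes, had 27.1 and 22.6 CPM with LysoPS, against 16.6 and 16.0 CPM in mock, with a log2 fold change of 0.61 and an adjusted p of 0.0224. Its LysoPS replicate 1 was the highest library and its mock libraries were close together.

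The other 4 called members of the large subunit moved less. Mrpl21 and Mrpl19, homologues of bacterial proteins that bind the large rRNA, had log2 fold changes of 0.45 and 0.43 (adjusted p = 0.0288 and 0.0303 by edgeR). Mrpl57, a small protein added in mitochondria, had 20.5 and 21.2 CPM with LysoPS, against 16.1 and 14.96 CPM in mock, with a log2 fold change of 0.43 and an adjusted p of 0.0329. Mrpl3, a homologue of the bacterial protein that reaches towards the catalytic centre, had 58.6 and 55.7 CPM with LysoPS, against 46.9 and 44.3 CPM in mock, with a log2 fold change of 0.33 and an adjusted p of 0.0377. In all 4 genes both LysoPS libraries were above both mock libraries. The value of Mrpl3 is uncertain, because the transcript length that its counts and FPKM imply varied by 1.69 times between libraries and a second model on its strand, Gm38077, overlaps it. Mrpl32, whose maturation by the m-AAA protease is needed for ribosome assembly, lay just beyond the threshold with a log2 fold change of 0.37 and an adjusted p of 0.0509.

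**Figure D2:**
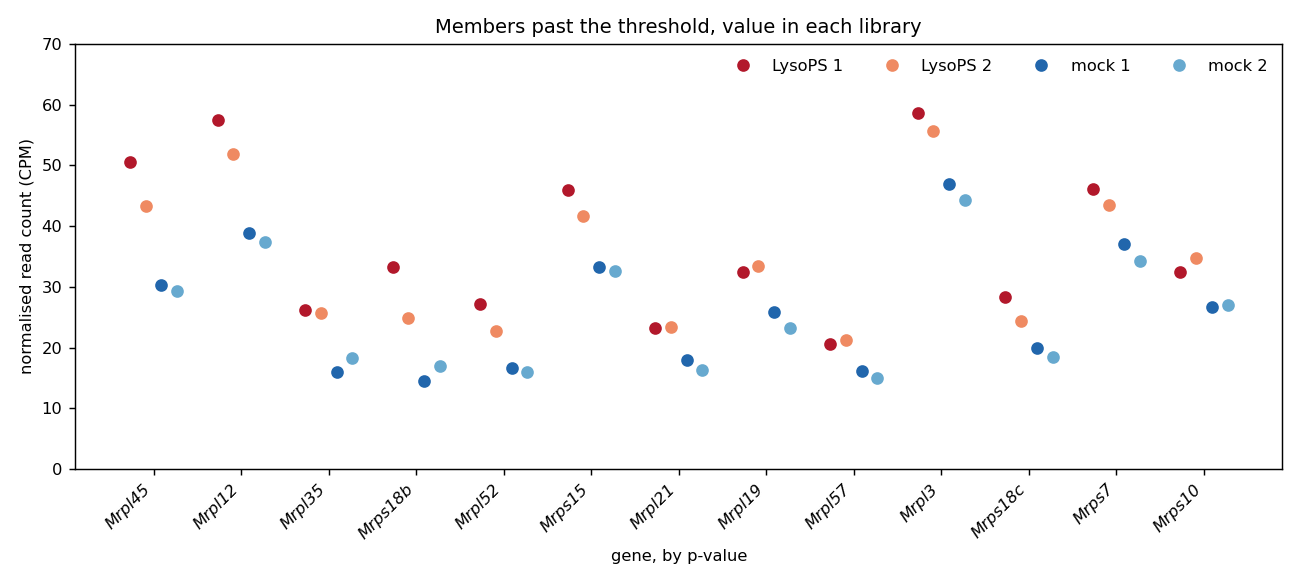
Normalised level (CPM) of the 13 called genes in each library, with LysoPS points left of mock points, ordered by p-value. In each of the 13 genes both LysoPS libraries lie above both mock libraries, and in Mrps18b the 2 LysoPS libraries are well apart, at 33.2 and 24.9 CPM.

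The small subunit, which decodes the mRNA, has 26 members here, of which 5 were called higher and 0 lower, with 19 above 0 and a median log2 fold change of 0.14. Its summed level was 777 and 716 CPM with LysoPS, against 731 and 659 CPM in mock, a ratio of 1.07. Here the groups overlapped, since mock replicate 1 lay above LysoPS replicate 2. Mrps23, Mrps21 and Mrps34 were then left out, after their high values in mock replicate 1 had been seen. The sum of the other 23 members was 726 and 667 CPM with LysoPS, against 641 and 612 CPM in mock (ratio 1.11). The groups did not overlap in this sum, but the choice of genes lowered mock replicate 1 most, so the separation decides nothing. Whether the subunits differ was not tested.

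The S18-related family has 3 members, all similar to bacterial S18, that occupy different places in the ribosome. Mrps18b, of the small subunit, had the largest fold change of all members. Its model, ENSMUSG00000024436 at chr17:35910379-35916389 on the minus strand, had 33.2 and 24.9 CPM with LysoPS, against 14.5 and 17.0 CPM in mock. Both groups varied, but they did not overlap, and the log2 fold change was 0.88 ± 0.171 (SE, n = 2 each; adjusted p = 0.0211 by edgeR). Leaving out 1 library moved it between 0.65 and 1.08, and without mock replicate 1 the adjusted p was 0.0769, beyond the threshold. Mrps18c, which takes the place of S18 itself, had 28.3 and 24.5 CPM with LysoPS, against 19.995 and 18.5 CPM in mock, with a log2 fold change of 0.46 and an adjusted p of 0.0413. Mrps18a, placed in the large subunit, was not called, with a log2 fold change of 0.19 and an adjusted p of 0.177. Differences among the 3 were not tested.

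The remaining called members of the small subunit are homologues of bacterial rRNA-binding proteins. Mrps15 had 45.98 and 41.6 CPM with LysoPS, against 33.2 and 32.6 CPM in mock, with a log2 fold change of 0.41 and an adjusted p of 0.0259 by edgeR. Mrps7, in the head of the subunit, had a log2 fold change of 0.33 and an adjusted p of 0.0446, and Mrps10, also in the head, had 0.33 and 0.0459. All 3 had both LysoPS libraries above both mock libraries.

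Mrps6, the homologue of bacterial S6, had the largest log2 fold change below 0 among members whose groups did not overlap. Its model, ENSMUSG00000039680 at chr16:92058270-92112227, had 49.4 and 44.95 CPM with LysoPS, against 61.9 and 56.3 CPM in mock. Both LysoPS libraries were below both mock libraries, with a log2 fold change of -0.33 and an adjusted p of 0.0573 by edgeR, just beyond the threshold. It was called lower by DESeq2 (adjusted p = 0.0426) and with library totals in place of TMM (adjusted p = 0.0255). Slc5a3, a myo-inositol transporter gene, lies within the Mrps6 model on the same strand. It had 1992 and 3324 counts with LysoPS, against 1755 and 2709 counts in mock, so reads of the pair may not have been told apart.

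A few members owed their value to 1 library. Mrps23, a mitochondria-specific protein of the small subunit, had 19.7 and 17.2 CPM with LysoPS, against 40.2 and 16.9 CPM in mock. Mrps21, the homologue of bacterial S21, had 18.9 and 17.7 CPM with LysoPS, against 30.1 and 17.6 CPM in mock. Mrps34, also added in mitochondria, had 12.7 and 13.1 CPM with LysoPS, against 19.5 and 12.5 CPM in mock. In all 3 genes mock replicate 1 stood far above the other libraries, which were close together. Their log2 fold changes were -0.62, -0.38 and -0.31 with all libraries and 0.13, 0.05 and 0.05 without mock replicate 1. Without mock replicate 2, Mrps23 and Mrps21 were called lower, at -1.12 and -0.72 (adjusted p = 0.0110 and 0.0323 by edgeR). The transcript length implied by counts and FPKM varied by 1.42 times between libraries in Mrps34, so its value is uncertain.

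In 2 other members LysoPS replicate 1 stood apart. Mrpl58, a peptidyl-tRNA hydrolase of the large subunit that rescues stalled ribosomes, had 22.8 and 10.4 CPM with LysoPS, against 13.5 and 10.7 CPM in mock. Mrpl53, near the stalk base and the member with the fewest counts, had 3.14 and 1.65 CPM with LysoPS, against 1.62 and 1.76 CPM in mock. Their log2 fold changes of 0.45 and 0.49 became -0.22 and -0.04 without LysoPS replicate 1, and without LysoPS replicate 2 they were called higher at 0.92 and 0.89. Mrpl1, the homologue of bacterial L1, had 19.7 and 19.4 CPM with LysoPS, against 11.6 and 16.3 CPM in mock, with a log2 fold change of 0.48 and an adjusted p of 0.1097. It was called higher without mock replicate 2 (adjusted p = 0.0403). The implied transcript length varied between libraries by 1.59 times in Mrpl58 and 1.39 times in Mrpl1, so both values are uncertain. Mrps36, now placed in the alpha-ketoglutarate dehydrogenase complex and not in the ribosome, had 26.6 and 23.7 CPM with LysoPS, against 23.4 and 22.8 CPM in mock, and was not called (log2 fold change 0.12, adjusted p = 0.426).

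The 2 LysoPS libraries differed in the members as a whole. LysoPS replicate 1 was above LysoPS replicate 2 in 67 of 78 members (85.9%), against 50.1% of all tested genes, with a median log2 difference of 0.15. Mock replicate 1 was above mock replicate 2 in 60 of 78 members, against 10138 of 19057 tested genes, with a median log2 difference of 0.07 in the members. The members' median log2 difference from the mock mean was 0.24 in LysoPS replicate 1 and 0.11 in LysoPS replicate 2. LysoPS replicate 1 was the highest library in 56 members and mock replicate 2 the lowest in 48. The median difference between the LysoPS libraries, 0.15, was no smaller than that between LysoPS replicate 2 and mock. Among the microglial markers, the chemokine receptor gene Cx3cr1 also differed between replicates, with 176 and 19.5 CPM with LysoPS, against 132 and 13.4 CPM in mock, the higher value in replicate 1 of both groups. The part of such differences between libraries in the members' values was not tested.

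**Figure D3:**
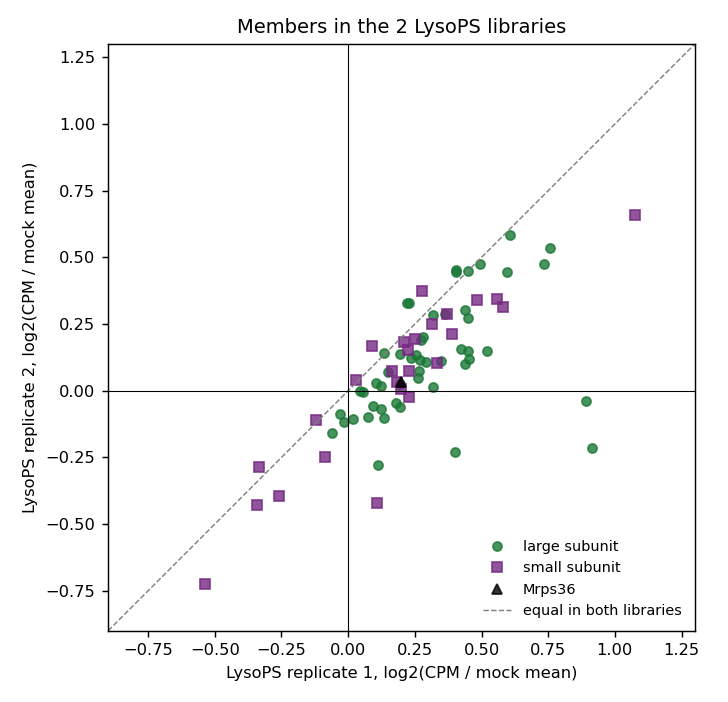
Log2 difference of each member from the mock mean in LysoPS replicate 1 (horizontal axis) and in LysoPS replicate 2 (vertical axis), with the line of equal values dashed and the subunits marked. Most points lie above 0 on both axes and below the line, with medians of 0.24 in replicate 1 and 0.11 in replicate 2, and both axes share the mock mean.

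The number of calls depended on each library. Without mock replicate 1, edgeR called 0 members (16 higher and 0 lower at an unadjusted p under 0.05), and without mock replicate 2 it called 5, 3 higher and 2 lower. Without LysoPS replicate 1 it called 5 members, all higher, and without LysoPS replicate 2 it called 19, all higher, 10 of them among the 13. Mrpl35 and Mrps18b were called in 3 of these 4 fits, and no member was called in all 4. Calls over all genes numbered 2223, 2165, 3842 and 5356 in these fits, against 4854 (25.5%) with all libraries. The members' median log2 fold change stayed between 0.10 and 0.25. A fit with a lone library in a group assumes that it varies as the other group does.

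By their relation to bacterial ribosomes, 46 members were classed as standing for a bacterial protein and 31 as added in mitochondria. The bacterial class wrongly holds Mrpl55, a protein added in mitochondria, which was not called (log2 fold change 0.28, adjusted p = 0.225 by edgeR). The class sizes and medians given here are therefore approximate, while the numbers of calls do not depend on it. The added class here includes Mrps18a and Mrps18b, which resemble S18 but do not take its place. Of the bacterial class, 9 were called higher, with a median log2 fold change of 0.19. Of the added proteins, 4 were called higher, with a median of 0.16. With Mrps18a and Mrps18b moved to the bacterial class, 10 of 48 and 3 of 29 were called higher, with medians of 0.19 and 0.14. Neither class had a member called lower, and their difference was not tested. By place in the large subunit, the called genes were spread thinly, with 1 of 9 in the central protuberance, 1 of 6 at the rim of the exit tunnel and 1 of 5 on the stalk and factor-binding side.

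Levels per transcript length were compared in the deposited TPM values, which correct for length. The median member had a mean of 46.4 TPM over the 4 libraries. Mrpl42, a mitochondria-specific protein of the large subunit, was highest, with 154 and 150 TPM with LysoPS, against 170 and 164 TPM in mock. Mrpl20, the homologue of bacterial L20, followed with 158 and 144 TPM with LysoPS, against 155 and 125 TPM in mock. Mrps6 came next, with 110 and 105 TPM with LysoPS, against 157 and 147 TPM in mock. Mrpl42 lay above Mrps6 in every library. Mrpl20 lay above both in LysoPS replicate 1 and below both in the mock libraries, so its place is not settled. Mrpl53 was lowest, with 8.18 and 4.47 TPM with LysoPS, against 4.77 and 5.42 TPM in mock. The model Gm42688, on the same strand, spans Mrpl53 and had 613 and 710 counts with LysoPS, against 508 and 691 counts in mock. Mrpl53 held between 8.96% and 14.6% of the counts of the pair, whose reads may not have been told apart. Above Mrpl53 came Mrpl35, with 13.9 and 14.0 TPM with LysoPS, against 9.74 and 11.5 TPM in mock, and Mrpl17, at the exit tunnel, with 11.4 and 12.4 TPM with LysoPS, against 14.3 and 12.04 TPM in mock. Mrpl53 lay below the other 2 in every library, while those 2 overlapped.

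**Figure D4:**
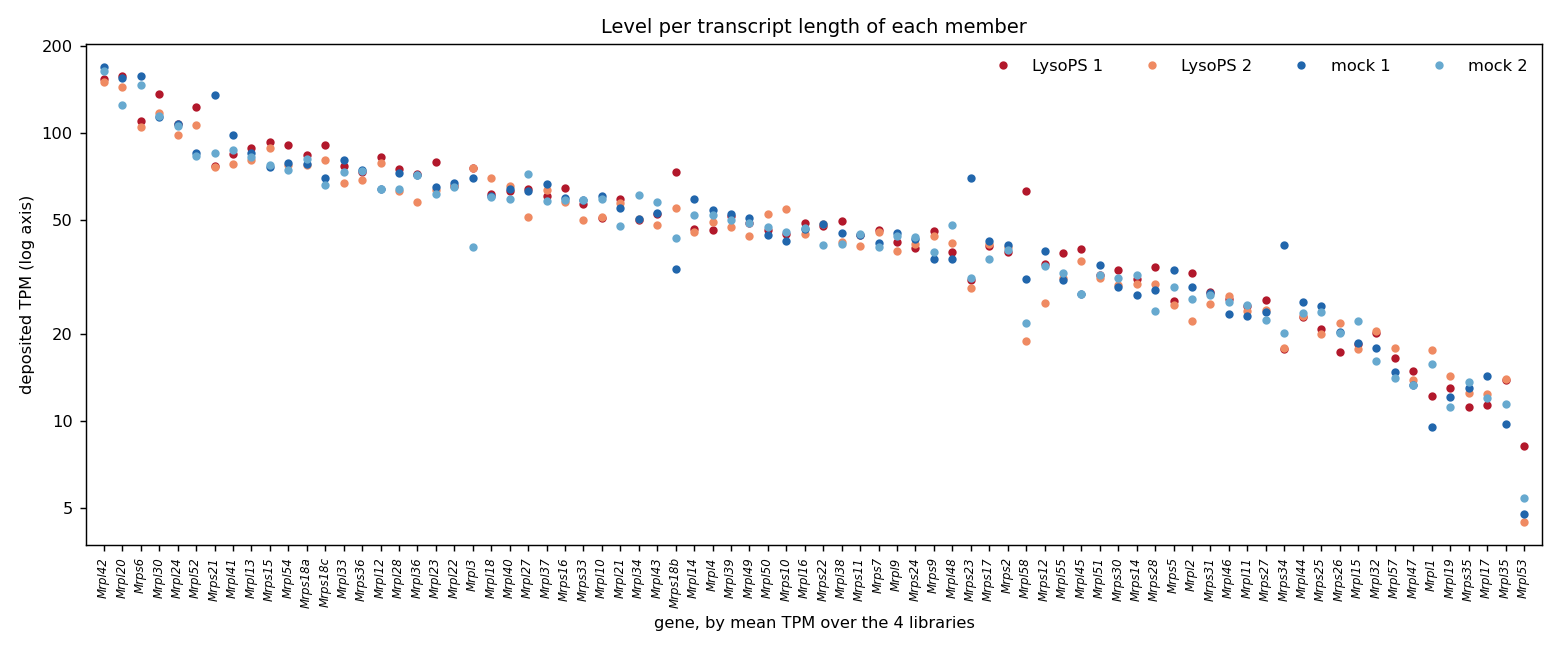
Deposited TPM of the 78 members in each library on a log axis, ordered by mean, with LysoPS and mock libraries marked. Levels run from 5.71 to 160 TPM on average, and in most members the libraries lie close together beside that range, with Mrps23, Mrps34 and Mrpl58 among those with 1 library far above the rest.

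Many members share their start region with a gene on the other strand. An opposite-strand gene start within 1000 bases was found for 36 of 78 members (46.2%), against 18.4% of all tested genes. Mrps11 and Mrpl46, both members, start 412 bases apart in overlapping models, and neither was called (log2 fold change 0.10 and 0.30). Mrps18b starts 45 bases from Ppp1r10, a regulator of protein phosphatase, whose log2 fold change was -0.10 beside 0.88 for Mrps18b. Mrpl32 starts 75 bases from Psma2, a proteasome subunit gene, which was called higher at 0.43 (adjusted p = 0.00950 by edgeR). Mrps7 starts 126 bases from Gga3, a trafficking adaptor gene, which was called higher at 0.35 (adjusted p = 0.0398). Mrpl10, of the stalk base, was not called at -0.06, while Lrrc46, 153 bases away, was called lower at -0.89 (adjusted p = 0.0111). Mrpl18, in the central protuberance, overlaps Tcp1, a chaperonin subunit gene called higher at 0.50 (adjusted p = 0.00777). Over all members, 41 overlap another gene model, and reads of such pairs may not have been told apart, since no label or note used here says whether the libraries keep strand.

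Genes that work with the mitochondrial ribosome were described from lists. The first list held 6 tested genes, made up of ribosome subunits with other symbols and the insertase gene Oxa1l. Of these, edgeR called 0 (1 higher and 0 lower at an unadjusted p under 0.05, and 0 by DESeq2 and by limma-voom). The median log2 fold change was 0.13. Of 27 tested genes for ribosome assembly and rRNA modification, 2 were called higher and 1 lower. Fastkd2, an RNA-binding protein of large-subunit assembly, had 30.3 and 34.5 CPM with LysoPS, against 22.7 and 23.6 CPM in mock, with a log2 fold change of 0.48 and an adjusted p of 0.0257. Mrm3, a methyltransferase of the large rRNA, was called higher at 0.55 (adjusted p = 0.0472). Ngrn, a protein needed for the large rRNA, was called lower, with 14.4 and 14.5 CPM with LysoPS, against 18.7 and 20.6 CPM in mock, a log2 fold change of -0.44 and an adjusted p of 0.0339. Fastkd2 was not called without mock replicate 1 or mock replicate 2, and Mrm3 and Ngrn were not called when any 1 library was left out (lowest adjusted p 0.0587 and 0.0548).

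Of 15 tested translation factors and activators, 2 were called higher and 0 lower. Slirp, the partner of Lrpprc that stabilises mitochondrial mRNAs, had 30.4 and 30.6 CPM with LysoPS, against 18.5 and 17.2 CPM in mock. Its log2 fold change was 0.78 (adjusted p = 0.00512 by edgeR), the groups were far apart, and the call held with each library left out. Gfm1, the elongation factor that moves the ribosome along the mRNA, had 66.7 and 68.3 CPM with LysoPS, against 56.3 and 53.9 CPM in mock, with a log2 fold change of 0.29 and an adjusted p of 0.0412, and was not called when any 1 library was left out (lowest adjusted p 0.0713).

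Of 13 tested regulators of mitochondrial transcription and biogenesis, 4 were called higher and 0 lower. Myc, a transcription factor known to raise ribosome and mitochondrial biogenesis genes, had 36.9 and 34.3 CPM with LysoPS, against 19.9 and 16.0 CPM in mock, with a log2 fold change of 0.99 and an adjusted p of 0.00728 by edgeR. Pprc1, a coactivator of the PGC-1 family induced by growth signals, had 40.2 and 32.1 CPM with LysoPS, against 22.4 and 20.5 CPM in mock, with a log2 fold change of 0.76 and an adjusted p of 0.0168. The groups did not overlap for either gene, Myc was called with each library left out, and the adjusted p of Pprc1 was 0.0746 without mock replicate 2. Esrra, a nuclear receptor for mitochondrial genes, and Yy1 were called higher at 0.52 and 0.30 (adjusted p = 0.0254 and 0.0337). Esrra was not called without mock replicate 1, mock replicate 2 or LysoPS replicate 1, nor Yy1 without mock replicate 1, mock replicate 2 or LysoPS replicate 2. Ppargc1a, Nrf1 and Tfam were not called, with log2 fold changes of -0.34, 0.03 and -0.02. Gabpb1, for a subunit of GABP, was not called at 0.72 (adjusted p = 0.0837 by edgeR). It had 30.7 and 32.6 CPM with LysoPS, against 14.5 and 23.8 CPM in mock. Its implied transcript length varied by 1.25 times between libraries, so its value is uncertain. Of the 13 regulators, 10 had a log2 fold change above 0 and 3 below. DESeq2 called 5 higher and 0 lower.

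The 13 mRNAs encoded in mitochondrial DNA, which this ribosome translates, summed to 55947 and 56998 CPM with LysoPS, against 55858 and 54298 CPM in mock. Of these, edgeR called 0 (1 higher and 2 lower at an unadjusted p under 0.05), DESeq2 called 0 higher and 1 lower, and limma-voom called 1 higher and 0 lower, with a median log2 fold change of -0.04. With library totals in place of TMM, 4 were called lower. Reads of these mRNAs can be shared with near-identical nuclear copies.

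The cytosolic ribosomal protein genes, listed for comparison, had 51 of 87 called higher and 0 lower, with a median log2 fold change of 0.35. All 87 were higher in LysoPS replicate 1 than in LysoPS replicate 2, the order also seen in 67 of 78 members. With library totals in place of TMM, 18 were called higher and 0 lower. With 1 library left out, 2 were called higher without mock replicate 1, 1 without mock replicate 2, 28 without LysoPS replicate 1 and 77 without LysoPS replicate 2, and 0 lower in each of these fits. The members' summed level was 2570 and 2330 CPM with LysoPS, against 2244 and 2103 CPM in mock, a ratio of 1.13, while that of the cytosolic genes was 32466 and 28784 CPM with LysoPS, against 24903 and 23582 CPM in mock, a ratio of 1.26. The difference between the families was not tested.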

How the data were processed

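Per the labels' protocols, poly-T-selected mRNA from Trizol extracts was sequenced paired-end on an MGISEQ2000. The treatment label speaks of 1 treated replicate, but the labels of 2 samples name LysoPS, and these were followed. FastQC 0.11.2, Trimmomatic 0.36, HISAT2, StringTie and build GRCm38 are named in the submitters' processing notes, with no counting program. The deposited table holds whole-number counts without normalization, and TPM and FPKM by the authors, for each gene model and library. TPM served for levels between genes and for 1 ratio. FPKM served, with the counts, to check read assignment: where the length they imply varied by over 1.2 times between libraries, assignment was taken as unstable.

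Counts were tested with edgeR 4.0.16 in R 4.3.3 (filterByExpr with a minimum count of 10, TMM, two-sided quasi-likelihood F test, 2 residual degrees of freedom, Benjamini-Hochberg adjustment), which called 2447 genes higher and 2407 lower. On simulated counts for LysoPS against mock over 18685 genes, the fit recovered 0 of 50 genes changed by 1.3-fold, 4 of 50 by 1.5-fold, 31 of 50 by 2-fold and 42 of 50 by 4-fold, with 3 false calls among 80. The simulation held fewer changed genes than the data, so these rates may not apply to them. The biological coefficient of variation was 0.150, and members had between 50 and 2681 counts per library. Alternatives used DESeq2 1.42.0, limma 3.58.1, other filters and scalings, a replicate block and each library left out.

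The members, gene lists and rule for named genes were chosen with earlier results of these data known. The rule took all called members, the 3 highest and 3 lowest in TPM, the 3 largest changes not called, Mrps36 and up to 4 called genes per list. Mrps18a, Mrps21, Mrps34, Mrpl32, Mrpl58, uncalled regulators and neighbouring genes were added once their values had been seen.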

Additional observations from a re-analysis of the deposited data

How the results depend on the processing

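With 2 libraries a group, small changes depend on single libraries and on scaling. Under DESeq2 size factors, no filter, a stricter filter, DESeq2, limma-voom and stable read assignment, between 12 and 16 members were called, and the members' median log2 fold change kept its direction in every alternative run. Mrps6 was the 1 member called lower under the stricter filter, DESeq2, the replicate block, library totals and the removal of length and GC trends. Library totals without TMM, added after the data were seen, gave 6 called members, 5 higher and 1 lower, a median log2 fold change of 0.087, and over all genes 1821 higher and 3226 lower calls against 2447 and 2407. They turned Mrpl42 to -0.030. The removal of length and GC trends, also added later, called 14 members, 12 of them among the 13, and turned Mrpl17 to 0.012, Mrps36 to -0.051 and Mrps11 to -0.014. With each library left out, calls ranged from 0 to 19 members, from 0 to 19 higher and from 0 to 2 lower, from 2165 to 5356 over all genes, and the median from 0.10 to 0.25. Log2 fold changes then ranged from -0.044 to 0.89 for Mrpl53, from -0.12 to 0.040 for Mrpl17, from -1.12 to 0.13 for Mrps23, from -0.72 to 0.051 for Mrps21, from -0.60 to 0.049 for Mrps34 and from -0.22 to 0.92 for Mrpl58. The libraries share replicate numbers, but no label pairs them. Over all tested genes, the deviations of same-numbered libraries correlated at 0.0775, which does not describe the members alone. In the members, replicate 1 was above replicate 2 in 67 of 78 with LysoPS and in 60 of 78 in mock. With the replicate number as a block, 18 members were called, 17 higher and 1 lower, and 5433 genes in all. Mrps18c was not called with trend removal, nor Mrps10 without a filter (adjusted p = 0.0813 and 0.0651 by edgeR), and the cause was not tested.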
